A study of Homo sapiens with 16 samples.

Results

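The liver secretes most of the plasma proteins that clot blood, dissolve clots and attack microbes, and 35 genes of these systems were followed here in HepG2, a human hepatoma cell line that keeps much of the secretory programme of hepatocytes. The genes were taken by name: clotting factors, their inhibitors, fibrinolysis proteins and complement components. They were chosen with earlier results of these data known. Each was measured by the array row that lists that symbol alone, with the brightest row kept where a symbol had several. All 35 were found among the 22464 genes tested. For 34 of them the array had 1 row. CFB had 7 rows.

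Clotting runs as a cascade of proteases, in which tissue factor with factor VII starts the extrinsic branch, the contact factors start the intrinsic branch, and both meet at factor X and thrombin. Serpins and the protein C system hold the cascade in check, and plasmin removes fibrin. Complement is a parallel protease cascade, opened by antibodies, by lectins or on surfaces, that cuts C3 and C5 and ends in a pore built from the terminal components. Much of this output is known as part of the hepatic acute-phase response.

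The cultures formed a design of drug by medium. Cells were given PD98059, a MEK inhibitor, or the solvent DMSO for 1 h and were then incubated for 8 h, with drug or solvent still present, in complete DMEM or in DMEM lacking histidine, an essential amino acid. MEK is the kinase that activates ERK. The groups were DMSO in complete medium (DMSO-DMEM), DMSO without histidine (DMSO-His), PD98059 in complete medium (PD-DMEM) and PD98059 without histidine (PD-His), each with 4 arrays from independent incubations of 1 cell line. The protocol gives the dose as 2.5 uM, while some sample labels print a different unit that was read as a misprint. Values are RMA log2 expression values, so a difference of 1 is a doubling, and a gene was called at a limma adjusted p under 0.05 over all 22464 genes. Levels of different genes are not set against each other, because each row has its own probes.

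Array medians ran from 6.20 to 6.28 on the log2 scale. The third PD-His array lay farther from its group than any other. Its root mean square distance from the PD-His means was 0.111 over all genes against 0.0496 to 0.0760 on the other arrays, and 0.107 over the 35 members against 0.0274 to 0.0550. The 5 measured hepatocyte markers all lay above the median of all values, 6.22. Their mean log2 level was 11.34 to 11.39 with DMSO and 11.38 to 11.43 with PD98059 in complete medium, and 11.20 to 11.27 and 11.26 to 11.35 without histidine. Single hepatocyte markers went both ways, by -0.26 to 0.07 with depletion under DMSO and by -0.14 to 0.33 with PD98059 in complete medium. In the former 0 were called higher and 3 lower (60%), and in the latter 1 higher (20%) and 0 lower. The shares of all genes in these contrasts are given below. The 4 endothelial markers, 3 of them under that median, had mean levels of 5.31 to 5.48 over all arrays, and the 4 macrophage and leukocyte markers, 2 of them under it, 6.33 to 6.47. The 3 measured stellate and fibroblast markers, 1 of them under it, had mean levels of 6.56 to 6.599 in DMSO-DMEM, 6.78 to 6.82 in DMSO-His, 6.48 to 6.58 in PD-DMEM and 6.57 to 6.72 in PD-His. Of the 3, PDGFRB, a platelet-derived growth factor receptor, was called in each contrast, and COL1A1 and DCN in none. PDGFRB rose by 0.49 and 0.29 with depletion under DMSO and PD98059, and fell by 0.20 and 0.40 with PD98059 in complete and depleted medium. The part of these markers in the results was not tested. In RNA of whole cultures, fewer cells and less RNA per cell cannot be told apart.

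Many clotting and complement genes rose with PD98059 in both media, among them KNG1, SERPINF2 and SERPINC1. In complete medium 15 of the 35 members (42.9%) rose and 1 fell, where 7.59% of all genes rose and 6.74% fell. Without histidine 16 members (45.7%) rose and 1 fell, against 13.5% and 10.9% of all genes. Among genes as bright as most members, with a mean at or above the median of all values, 10.1% rose and 9.33% fell in complete medium and 17.8% rose and 14.8% fell without histidine. The median log2 fold change of the members was 0.10 in each medium, and that of all genes was 0.01 in complete medium and -0.01 without histidine. Because the members were chosen with earlier results known, these shares describe the list and do not test it.

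Histidine depletion, by contrast, split the members. With DMSO 8 rose (22.9%) and 7 fell (20%), beside 14.8% and 18.4% of all genes and 18.8% and 24.9% of the brighter genes. With PD98059 present 7 rose (20%) and 9 fell (25.7%), beside 12% and 15.3% of all genes and 16% and 21.2% of the brighter genes. The median log2 fold change of the members was 0.01 under either agent, with a range of -0.73 to 0.48 with DMSO. These shares lay near those of the brighter genes. The direction differed by gene, as the accounts by role show.

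**Figure D1:**
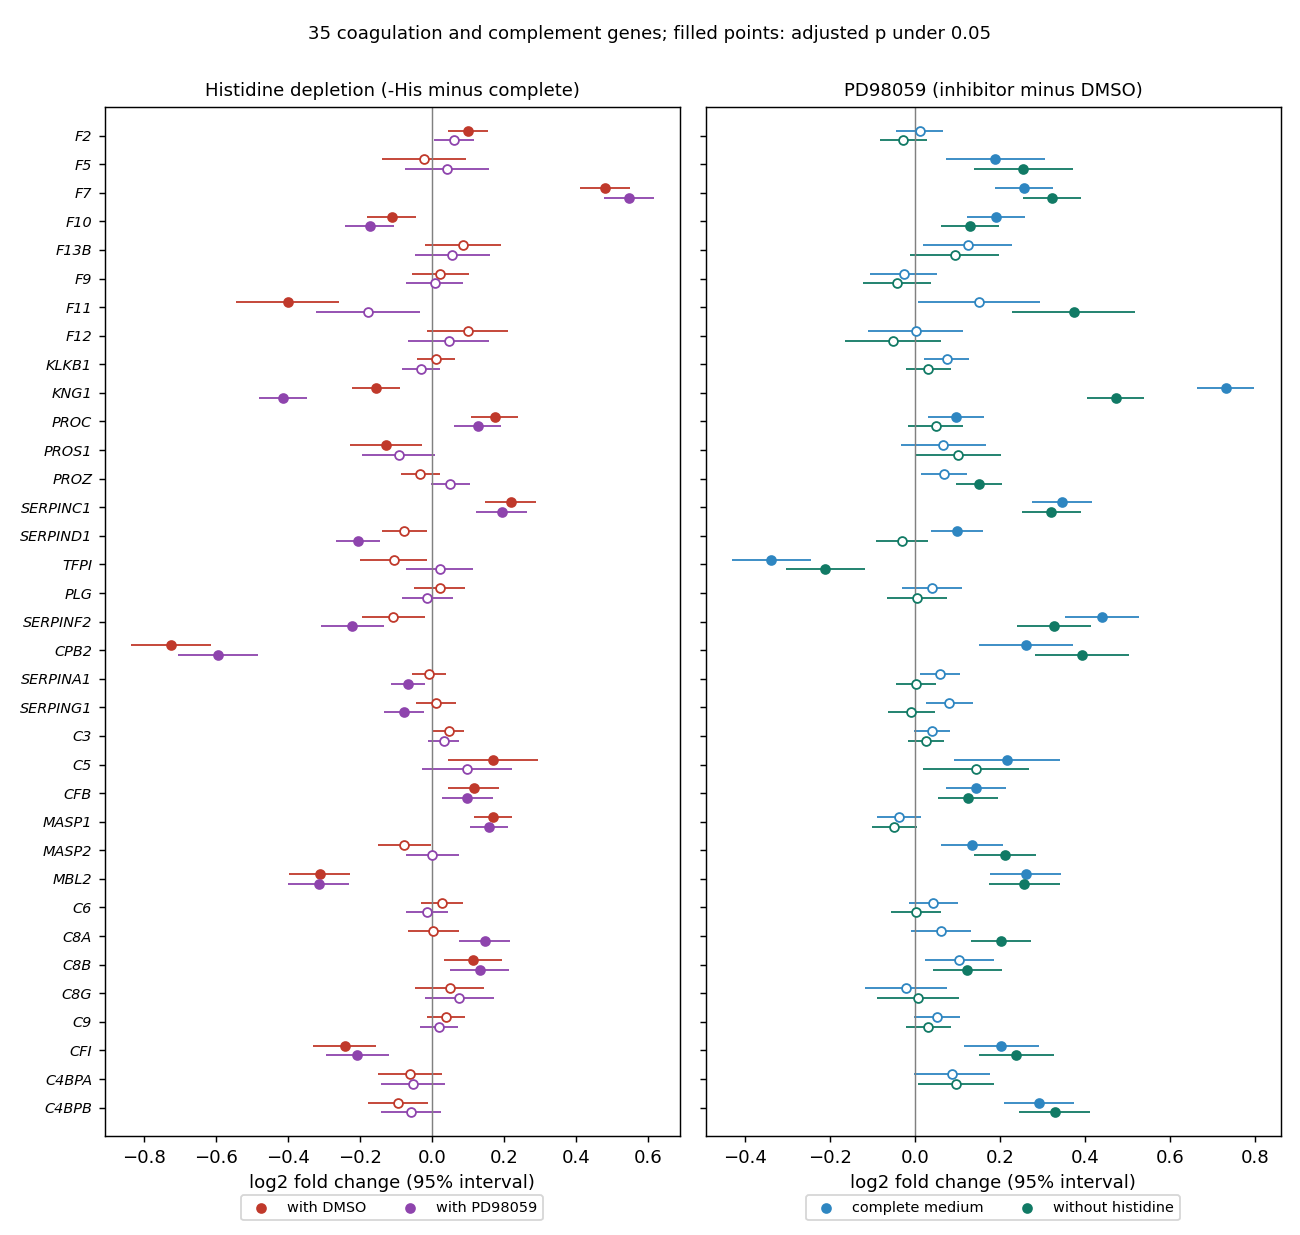
Log2 fold change of each of the 35 genes (points) with its 95% interval (bars), for histidine depletion under DMSO and under PD98059 (left) and for PD98059 in complete and in histidine-free medium (right). Filled points passed an adjusted p of 0.05. Points on the right lie mostly above 0, with TFPI the exception among the called genes, while those on the left spread from CPB2 at -0.73 to F7 at 0.55.

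The 2 PD98059 contrasts use different arrays, as do the 2 depletion contrasts, though each pair shares the residual spread of the fit. PD98059 raised 12 members in both media: F5, F7, F10, KNG1, SERPINC1, SERPINF2, CPB2, CFB, MASP2, MBL2, CFI and C4BPB. These are 80% of the members called higher in complete medium and 75% of those called higher without histidine. As a part of all members they are 12 of 35, where 1254 of 22464 genes (5.58%) were called higher in both. Over all genes, 1705 were called higher in complete medium and 3034 without histidine. TFPI was the member called lower in both, where 4.83% of all genes were. Depletion raised F7, PROC, SERPINC1, CFB, MASP1 and C8B under either agent, with 8.98% of all genes called higher in both, and lowered F10, KNG1, CPB2, MBL2 and CFI, with 12.4% of all genes called lower in both. No member was called in opposite directions within either pair. A depletion contrast and a PD98059 contrast share a group of arrays, so their values are given side by side only.

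The promoters of the 4 members with the highest absolute called log2 fold changes among those with a RefSeq promoter entry are shown, since the results turn on such changes: KNG1 and CPB2, F7 and F11. Each runs from 250 bases before to 50 bases after the RefSeq start in GRCh38.p14, 5′ to 3′ on the gene's own strand. Capitals mark matches, on either strand, to motifs of factors known in hepatocyte or amino acid responses.
KNG1, chr3:186717109-186717408, plus strand: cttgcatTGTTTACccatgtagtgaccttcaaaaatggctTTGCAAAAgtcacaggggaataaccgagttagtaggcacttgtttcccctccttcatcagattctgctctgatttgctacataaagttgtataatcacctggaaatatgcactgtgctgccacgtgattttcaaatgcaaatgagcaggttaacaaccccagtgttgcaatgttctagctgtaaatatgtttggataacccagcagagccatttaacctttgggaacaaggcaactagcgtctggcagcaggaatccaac
CPB2, chr13:46104984-46105283, minus strand: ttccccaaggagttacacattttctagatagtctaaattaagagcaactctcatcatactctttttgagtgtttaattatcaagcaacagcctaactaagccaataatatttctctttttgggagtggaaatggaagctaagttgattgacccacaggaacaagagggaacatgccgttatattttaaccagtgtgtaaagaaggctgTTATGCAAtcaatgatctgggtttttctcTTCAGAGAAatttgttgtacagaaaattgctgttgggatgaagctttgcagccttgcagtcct
F7, chr13:113105541-113105840, plus strand: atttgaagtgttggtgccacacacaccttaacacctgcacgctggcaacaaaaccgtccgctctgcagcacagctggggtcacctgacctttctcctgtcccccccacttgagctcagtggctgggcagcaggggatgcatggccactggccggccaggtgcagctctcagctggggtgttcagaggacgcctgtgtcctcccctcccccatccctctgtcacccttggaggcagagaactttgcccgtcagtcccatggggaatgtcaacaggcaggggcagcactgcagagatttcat
F11, chr4:186265939-186266238, plus strand: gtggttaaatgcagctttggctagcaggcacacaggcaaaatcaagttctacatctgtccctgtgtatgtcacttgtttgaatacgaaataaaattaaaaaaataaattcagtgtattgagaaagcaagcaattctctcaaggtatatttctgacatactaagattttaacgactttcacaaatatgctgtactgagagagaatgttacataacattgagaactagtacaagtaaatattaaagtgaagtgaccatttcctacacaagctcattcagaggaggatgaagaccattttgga

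The KNG1 window held the FOXA motif TGTTTAC, beginning at position -243 relative to the start, and a match to the C/EBP motif TTGCNNAA, beginning at -210. The CPB2 window held TTGCNNAA on the reverse strand at -42 and the STAT motif TTCNNNGAA at -13. No searched motif was in the F7 or F11 window. Of the 35 members, 30 matched a RefSeq promoter. Over those 30, TGTTTAC was found for 6 members (20%), beside 3.42% of all 35116 windows of that length and 4.19% of genes, a gene counting when any of its windows matched. TTGCNNAA was found for 6, beside 10.5% of windows and 12.7% of genes, and TTCNNNGAA for 10 (33.3%), beside 7.66% and 9.38%. The partial HNF1 site GTTAAT was found for 10, beside 6.88% of windows and 8.27% of genes, and the C/EBP-ATF element TGATGNAA for C4BPA and MBL2, beside 3.62% and 4.46%. The HNF4 motif CAAAGTCCA was found for F10 and PROZ, beside 0.384% and 0.472%, and CAAAGGTCA for 0 members, beside 0.407% and 0.502%. The palindrome TTGCGCAA, whose matches also count under TTGCNNAA, was found for 0 members, beside 0.151% and 0.172%. These matches describe letters in the windows and say nothing of binding.

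Among the factors of the extrinsic and common branches, F7 carried the main change. Its product, factor VII, is the protease that tissue factor activates. F7 read 9.07, 9.02, 9.04 and 8.999 in DMSO-DMEM, 9.53, 9.52, 9.45 and 9.55 in DMSO-His, 9.36, 9.29, 9.23 and 9.28 in PD-DMEM, and 9.86, 9.81, 9.88 and 9.80 in PD-His. The 4 groups did not overlap anywhere, and cells with both drug and depletion were the highest. Depletion raised F7 by 0.48 ± 0.0323 (SE, 1.39-fold, limma adjusted p = 5.99e-09) with DMSO and by 0.55 (1.46-fold, adjusted p = 2.48e-09) with PD98059. PD98059 raised it by 0.26 in complete medium (adjusted p = 3.34e-05) and by 0.32 without histidine (adjusted p = 1.22e-06). The medium took 74.3% of the sum of squares of F7 over the 16 arrays and the drug 23.8%, and 1.60% lay within groups. The responses to depletion under drug and solvent differed by 0.07 with a 95% interval of -0.03 to 0.16, which did not pass the test.

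F10, which encodes factor X and is the next gene to F7 on chromosome 13, went the other way with depletion. It fell by 0.11 ± 0.0322 with DMSO (adjusted p = 0.0117) and by 0.17 with PD98059 (adjusted p = 0.000511). PD98059 raised it by 0.19 in complete medium and by 0.13 without histidine (adjusted p = 0.000556 and 0.00631), and in each of these 4 contrasts the arrays of the groups were apart. F5, the cofactor of factor X in its active form, rose with PD98059 by 0.19 and 0.25 (adjusted p = 0.0277 and 0.00212), the former call lost in 5 of the 16 fits that left out 1 array, and had depletion values of -0.02 and 0.04, not called. F2, prothrombin, rose with depletion under DMSO by 0.10 ± 0.0262 (adjusted p = 0.00681) and was not called in the other contrasts, with values of 0.06, 0.01 and -0.03. F13B, the carrier subunit of the fibrin crosslinking factor XIII, was dim, with group means of 4.52 to 4.70 under the median of all values, and was called in no contrast. With PD98059 3 of these 5 genes (60%) rose in either medium, beside 7.59% of all genes in complete medium and 13.5% without histidine. Depletion raised 2 (40%) and lowered 1 (20%) with DMSO, beside 14.8% and 18.4% of all genes. With PD98059 present it raised 1 and lowered 1, beside 12% and 15.3%. With 5 genes, 1 call is 20%.

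In the intrinsic and contact branch the kininogen gene KNG1, which encodes the carrier of prekallikrein and factor XI and the source of bradykinin, had the highest drug response of the 35. KNG1 read 6.43, 6.34, 6.38 and 6.45 in DMSO-DMEM, 6.28, 6.25, 6.21 and 6.24 in DMSO-His, 7.18, 7.13, 7.11 and 7.10 in PD-DMEM, and 6.79, 6.69, 6.68 and 6.71 in PD-His. The groups stood in 4 separate bands, PD98059 in complete medium the highest and depletion with DMSO the lowest. PD98059 raised KNG1 by 0.73 ± 0.0315 in complete medium (1.66-fold, limma adjusted p = 2.04e-10) and by 0.47 without histidine (1.39-fold, adjusted p = 1.18e-08). Depletion lowered it in both backgrounds: it fell by 0.16 with DMSO (adjusted p = 0.000879) and by 0.41 with PD98059 (adjusted p = 4.44e-08). The drug took 77.8% of its sum of squares and the medium 17.4%. KNG1 lay near the median of all values, so its differences are measured at a modest signal.

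F11 encodes factor XI, which activates factor IX. It read 7.40, 7.27, 7.37 and 7.40 in DMSO-DMEM, 7.05, 7.02, 6.80 and 6.96 in DMSO-His, 7.59, 7.54, 7.42 and 7.48 in PD-DMEM, and 7.36, 7.43, 7.11 and 7.42 in PD-His. The DMSO-His arrays lay below all others, and the third PD-His array lay below the rest of its group. Depletion with DMSO lowered F11: it fell by 0.40 ± 0.0677 (adjusted p = 0.000164). With PD98059 the difference was -0.18 (adjusted p = 0.0642), with overlapping arrays. PD98059 raised F11 without histidine by 0.37 (adjusted p = 0.000513), and the value in complete medium was 0.15 (adjusted p = 0.183). The responses to depletion differed by 0.22 (adjusted p = 0.234), so a different response under the drug was not shown. The remaining members of this branch were not called in any contrast. F12, factor XII, had depletion values of 0.10 and 0.05 and drug values of 0.00 and -0.05. F9, factor IX, and KLKB1, prekallikrein, were dim, with group means of 3.44 to 3.49 and 4.09 to 4.17. KLKB1 is the neighbour of F11 on chromosome 4.

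**Figure D2:**
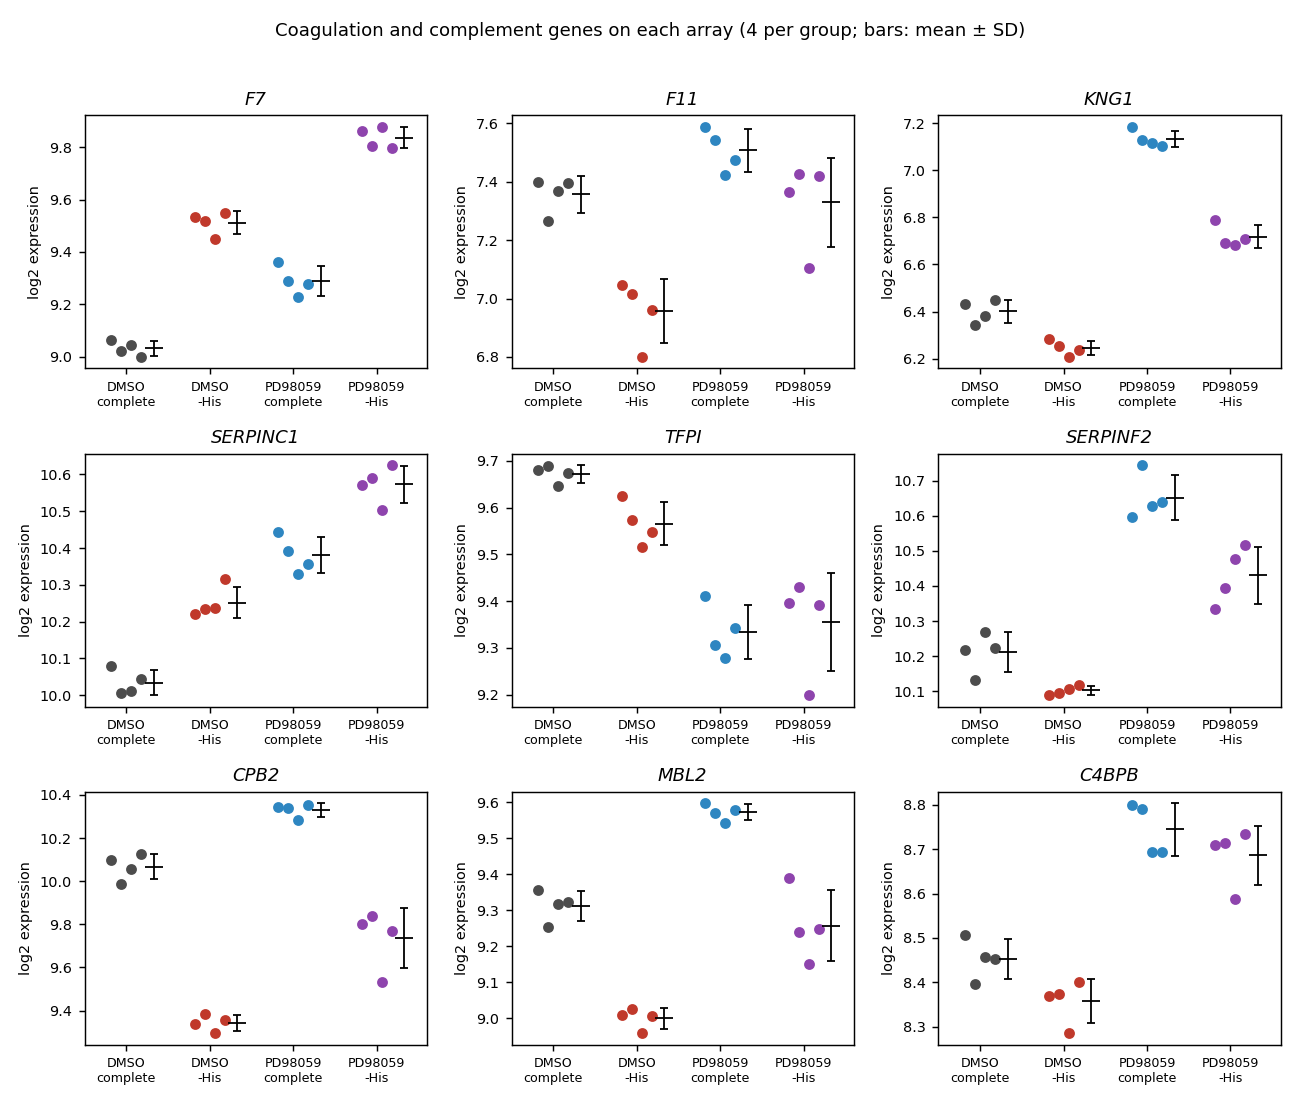
Log2 expression of the 9 members called with an absolute log2 fold change of at least 0.3 in some contrast, and not dim, on every array (points), with the mean and SD of each group of 4 (black marks). F7 is highest with drug and depletion together, KNG1 with the drug in complete medium, and CPB2 is lowest with depletion under DMSO.

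The clotting inhibitors rose with PD98059 in 3 of 6 cases (50%) in complete medium and in 2 of 6 (33.3%) without histidine, with 1 falling in each. Of all genes, 7.59% rose and 6.74% fell in complete medium, and 13.5% and 10.9% without histidine. With 6 genes, 1 call is 16.7%. SERPINC1 encodes antithrombin, the main inhibitor of thrombin and factor X in its active form. Its values were 10.08, 10.00, 10.01 and 10.04 in DMSO-DMEM, 10.22, 10.23, 10.24 and 10.31 in DMSO-His, 10.44, 10.39, 10.33 and 10.36 in PD-DMEM, and 10.57, 10.59, 10.50 and 10.63 in PD-His. Each group lay above the one before it in that order with no overlap. Depletion raised SERPINC1 by 0.22 ± 0.0329 with DMSO and by 0.19 with PD98059 (adjusted p = 5.59e-05 and 0.000246), and PD98059 raised it by 0.35 in complete medium and by 0.32 without histidine (adjusted p = 1.72e-06 and 1.63e-06). The responses to depletion under drug and solvent differed by -0.02, with a 95% interval of -0.12 to 0.07 (adjusted p = 0.851).

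TFPI, tissue factor pathway inhibitor, which blocks the first step of the extrinsic branch, was the member that fell with PD98059. It read 9.68, 9.69, 9.65 and 9.67 in DMSO-DMEM, 9.62, 9.57, 9.52 and 9.55 in DMSO-His, 9.41, 9.31, 9.28 and 9.34 in PD-DMEM, and 9.40, 9.43, 9.20 and 9.39 in PD-His. All PD98059 arrays lay below all DMSO arrays. It fell by 0.34 ± 0.044 in complete medium (adjusted p = 4.83e-05) and by 0.21 without histidine (adjusted p = 0.00169). The depletion values, -0.11 and 0.02, were not called, though the DMSO arrays did not overlap. The drug took 80.3% of its sum of squares.

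PROC, protein C, rose with depletion by 0.17 ± 0.0308 and 0.13 (adjusted p = 0.000258 and 0.00476) and with PD98059 in complete medium by 0.10 (adjusted p = 0.0474). The drug call was lost in 11 of the 16 fits without 1 array (adjusted p up to 0.156). Its cofactor gene PROS1, protein S, fell with depletion under DMSO by 0.13 (adjusted p = 0.0481), a call lost in 12 of those 16 fits (adjusted p up to 0.135), and was not called elsewhere. PROZ, protein Z, rose with PD98059 without histidine by 0.15 (adjusted p = 0.000284). SERPIND1, heparin cofactor II, an inhibitor of thrombin, fell by 0.21 with depletion under PD98059 (adjusted p = 3.67e-05) and rose by 0.10 with PD98059 in complete medium (adjusted p = 0.0295), the latter lost in 6 of those fits, and its values were -0.08 and -0.03 in the other contrasts. Counted across roles, the 7 vitamin K-dependent members (F2, F7, F9, F10, PROC, PROS1 and PROZ) had 3 rises (42.9%) and 0 falls with PD98059 in each medium, where 7.59% of all genes rose in complete medium and 13.5% without histidine. Depletion gave them 3 rises and 2 falls (28.6%) with DMSO and 2 rises and 1 fall (14.3%) with PD98059, beside 14.8% and 18.4%, and 12% and 15.3%, of all genes. With 7 genes, 1 call is 14.3%.

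Fibrinolysis genes held the lowest depletion response. CPB2 encodes the carboxypeptidase TAFI, which slows fibrin breakdown by trimming the sites where plasminogen binds. Its values were 10.10, 9.99, 10.06 and 10.13 in DMSO-DMEM, 9.34, 9.38, 9.29 and 9.35 in DMSO-His, 10.35, 10.34, 10.28 and 10.35 in PD-DMEM, and 9.80, 9.84, 9.53 and 9.77 in PD-His. No groups overlapped, and the depleted arrays lay below the complete-medium arrays under either agent. CPB2 fell by 0.73 ± 0.0521 with depletion under DMSO (1.65-fold lower, adjusted p = 1.32e-08) and by 0.59 under PD98059 (adjusted p = 2.31e-07). PD98059 raised it by 0.26 in complete medium and by 0.39 without histidine (adjusted p = 0.00222 and 2.51e-05). The medium took 77.0% and the drug 19.0% of its sum of squares.

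SERPINF2, the plasmin inhibitor alpha-2-antiplasmin, followed the drug. It read 10.22, 10.13, 10.27 and 10.22 in DMSO-DMEM, 10.09, 10.10, 10.11 and 10.12 in DMSO-His, 10.60, 10.74, 10.63 and 10.64 in PD-DMEM, and 10.33, 10.39, 10.48 and 10.52 in PD-His. Every PD98059 array lay above every DMSO array. PD98059 raised it by 0.44 ± 0.041 in complete medium (1.36-fold, adjusted p = 1.38e-06) and by 0.33 without histidine (adjusted p = 1.39e-05). It fell by 0.22 with depletion under PD98059 (adjusted p = 0.000504), and with DMSO the value was -0.11 (adjusted p = 0.0537). PLG, plasminogen itself, was dim, with group means of 4.88 to 4.92, and was called in no contrast. Of the broad serpins, SERPINA1, alpha-1-antitrypsin, and SERPING1, the C1 and contact-phase inhibitor, fell with depletion under PD98059 by 0.07 and 0.08 (adjusted p = 0.034 and 0.0329) and were not called elsewhere. These calls were lost in 5 and 6 of the 16 fits without 1 array, and when only the groups of the contrast were fitted (adjusted p = 0.144 and 0.126).

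The 15 complement members, SERPING1 among them, showed 6 rises (40%) and 0 falls with PD98059 in complete medium and 7 rises (46.7%) and 0 falls without histidine. The 20 clotting and fibrinolysis members had 9 rises (45%) and 1 fall (5%) in each medium. Of all genes, 7.59% rose and 6.74% fell with PD98059 in complete medium, and 13.5% and 10.9% without histidine. With depletion, 4 complement members rose (26.7%) and 2 fell (13.3%) with DMSO, beside 14.8% and 18.4% of all genes, and 4 rose and 3 fell (20%) with PD98059, beside 12% and 15.3%. MBL2, mannose-binding lectin, opens the lectin pathway. It read 9.36, 9.25, 9.32 and 9.32 in DMSO-DMEM, 9.01, 9.03, 8.96 and 9.005 in DMSO-His, 9.60, 9.57, 9.54 and 9.58 in PD-DMEM, and 9.39, 9.24, 9.15 and 9.25 in PD-His. The arrays with neither treatment and those with both overlapped, while each single treatment stood clear on its own side. MBL2 fell by 0.31 ± 0.0395 with depletion under DMSO and by 0.32 under PD98059 (adjusted p = 8.53e-06 and 1.1e-05), and PD98059 raised it by 0.26 in either medium (adjusted p = 0.000208 and 0.000108).

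The lectin pathway proteases went with different factors of the design. MASP1 rose with depletion by 0.17 ± 0.0247 and 0.16 (adjusted p = 3.94e-05 and 0.000102) and had drug values of -0.04 and -0.05, not called. MASP2, which cleaves C4 and C2, rose with PD98059 by 0.13 and 0.21 (adjusted p = 0.0137 and 0.000186), the former at an adjusted p of 0.0504 without PD-DMEM replicate 2, and had depletion values of -0.08 and 0.00, not called. CFB, factor B of the alternative pathway, rose in all 4 contrasts by 0.10 to 0.14 (adjusted p = 0.00709 to 0.0393). These calls did not hold with arrays shifted to the same median (adjusted p = 0.0623 to 0.142), and the call for depletion with PD98059 was lost in 7 of the 16 fits without 1 array. With every row tested, 0 of the 7 CFB rows passed for depletion with PD98059 (0.06 to 0.10, adjusted p = 0.0918 to 0.213), and all 7 did for PD98059 in complete medium (0.12 to 0.14). Most of these rows are named for alternate haplotypes of chromosome 6, some with the same values, so they are not independent measurements. C5 rose with depletion under DMSO by 0.17 and with PD98059 in complete medium by 0.22 (adjusted p = 0.036 and 0.0189), with values of 0.10 and 0.14 in the other backgrounds. The depletion call was lost in 6 of the 16 fits without 1 array and the drug call in 3, and both with shifted medians (adjusted p = 0.0983 and 0.0803). C3, the hub of the cascade, had values of 0.03 to 0.05 in the 4 contrasts, none called. With quantile normalization again, C3 was called higher with depletion under DMSO and under PD98059 (0.08 in each, adjusted p = 0.00362 and 0.00523). The former was also called with an intensity trend and robust variance and with array weights (adjusted p = 0.0218 and 0.0124).

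In the terminal pathway, 2 of the 5 members (40%) rose with PD98059 without histidine and 0 in complete medium, beside 13.5% and 7.59% of all genes. C8A, which encodes the alpha chain of C8, rose by 0.20 ± 0.0334 with PD98059 without histidine and by 0.15 with depletion under PD98059 (adjusted p = 0.000208 and 0.00295). Its values with depletion under DMSO and with PD98059 in complete medium were 0.00 and 0.06. C8B, its neighbour on chromosome 1 and the beta chain, was dim, with group means of 5.56 to 5.80, and rose by 0.11 to 0.13 in 3 contrasts. Leaving out 1 array lost its call in 4 fits for depletion with DMSO, in 1 (without PD-His replicate 4) for depletion with PD98059 and in 5 for PD98059 without histidine. C8G, the gamma chain, and C6 and C9, which join C8 in the pore, were not called, and C6 and C9 were dim. Among the complement inhibitors, CFI, the protease factor I that degrades C3b and C4b, fell with depletion by 0.24 ± 0.0415 and 0.21 (adjusted p = 0.000181 and 0.000969) and rose with PD98059 by 0.20 and 0.24 (adjusted p = 0.00267 and 0.000347).

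C4BPB encodes the beta chain of C4b-binding protein, which also binds protein S. It read 8.51, 8.40, 8.46 and 8.45 in DMSO-DMEM, 8.37, 8.37, 8.29 and 8.40 in DMSO-His, 8.80, 8.79, 8.69 and 8.69 in PD-DMEM, and 8.71, 8.71, 8.59 and 8.73 in PD-His. The PD98059 arrays lay above all DMSO arrays in both media, and depletion left the groups overlapping. PD98059 raised C4BPB by 0.29 ± 0.0389 in complete medium and by 0.33 without histidine (adjusted p = 6.26e-05 and 7.85e-06). The depletion values were -0.10 and -0.06, not called. C4BPA, the alpha chain gene beside it on chromosome 1, had drug values of 0.09 and 0.10 and was not called.

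**Figure D3:**
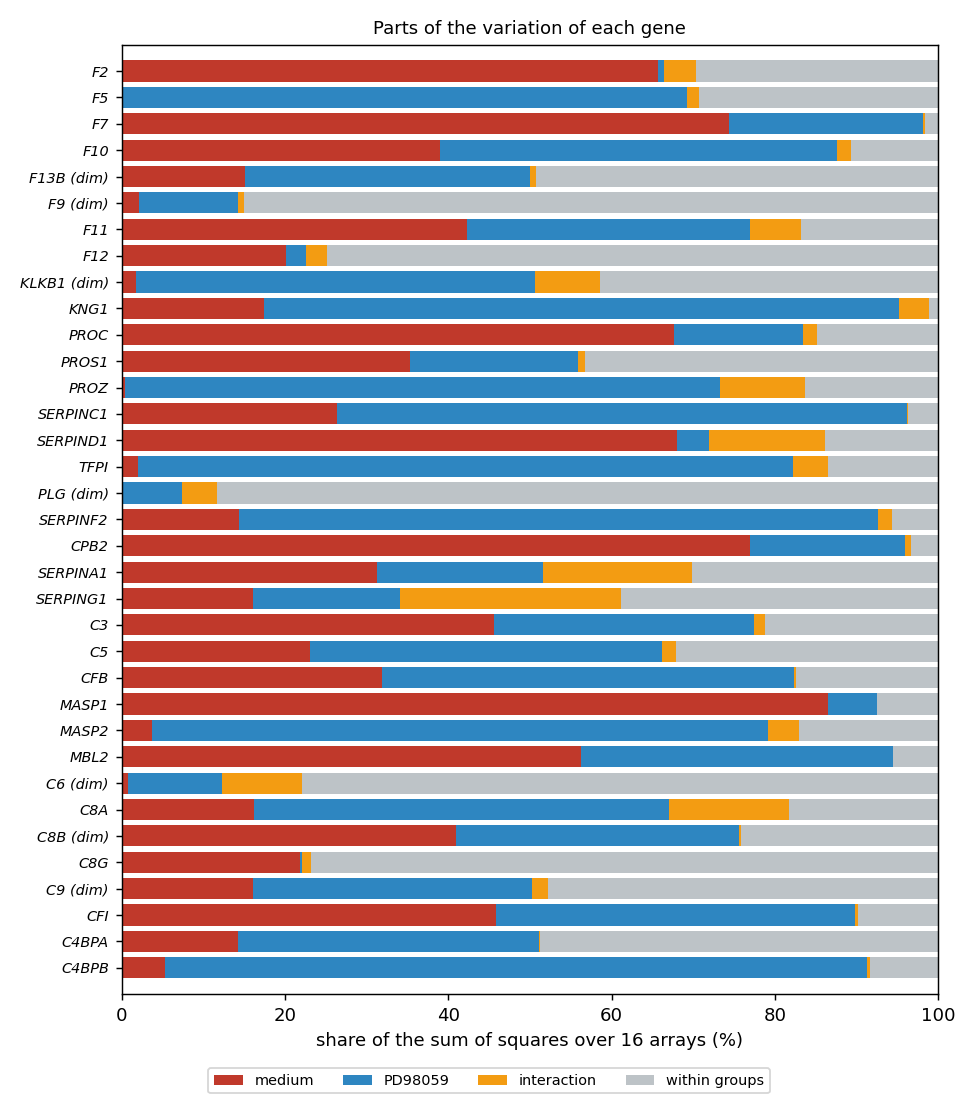
Share of each gene's sum of squares over the 16 arrays (percent) that lay with the medium, the drug, their interaction and the spread within groups. MASP1 (86.4% medium) and C4BPB (86.0% drug) mark the ends, and the dim genes F9, PLG and C6 lie mostly within groups.

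Divided by what carried most of the spread, the 28 members that were not dim fell into 12 with the drug as the main part, 11 with the medium and 5 with the spread within groups. CFI lay between, with 45.8% for the medium and 44.0% for the drug. Of the 7 dim members (F13B, F9, KLKB1, PLG, C6, C8B and C9), 5 had the spread within groups as the main part. In all, 10 members were called in no contrast of the fit reported: F13B, F9, F12, KLKB1, PLG, C3, C6, C8G, C9 and C4BPA. Of these F12, C3, C8G and C4BPA were not dim.

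Whether the drug altered the response to depletion was tested for each gene as the response with PD98059 minus that with DMSO. KNG1 was the 1 member called: the difference was -0.26 ± 0.0446 with a 95% interval of -0.35 to -0.16 (adjusted p = 0.00217), so its fall with depletion was deeper under PD98059. That is 2.86% of the members called lower and 0 called higher, where 2.83% of all genes were called lower and 2.91% higher, and 3.88% and 3.97% of the brighter genes. A further 5 members had an unadjusted p under 0.05 in limma's test, which makes 3 higher and 3 lower with KNG1. The share of all genes under that unadjusted limit was not counted, so no general rate stands beside these members. The intervals for F11 (0.02 to 0.43) and CPB2 (-0.03 to 0.29) leave room for differences of the size seen in KNG1. Without the third array of PD98059 without histidine, 4 members were called higher: F11 by 0.30, TFPI by 0.18, CPB2 by 0.20 and C8A by 0.15 (adjusted p = 0.0162, 0.0134, 0.00897 and 0.0487). Calls rose over all genes too, with 1747 of 22464 called higher in that fit and 654 with all arrays.

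**Figure D4:**
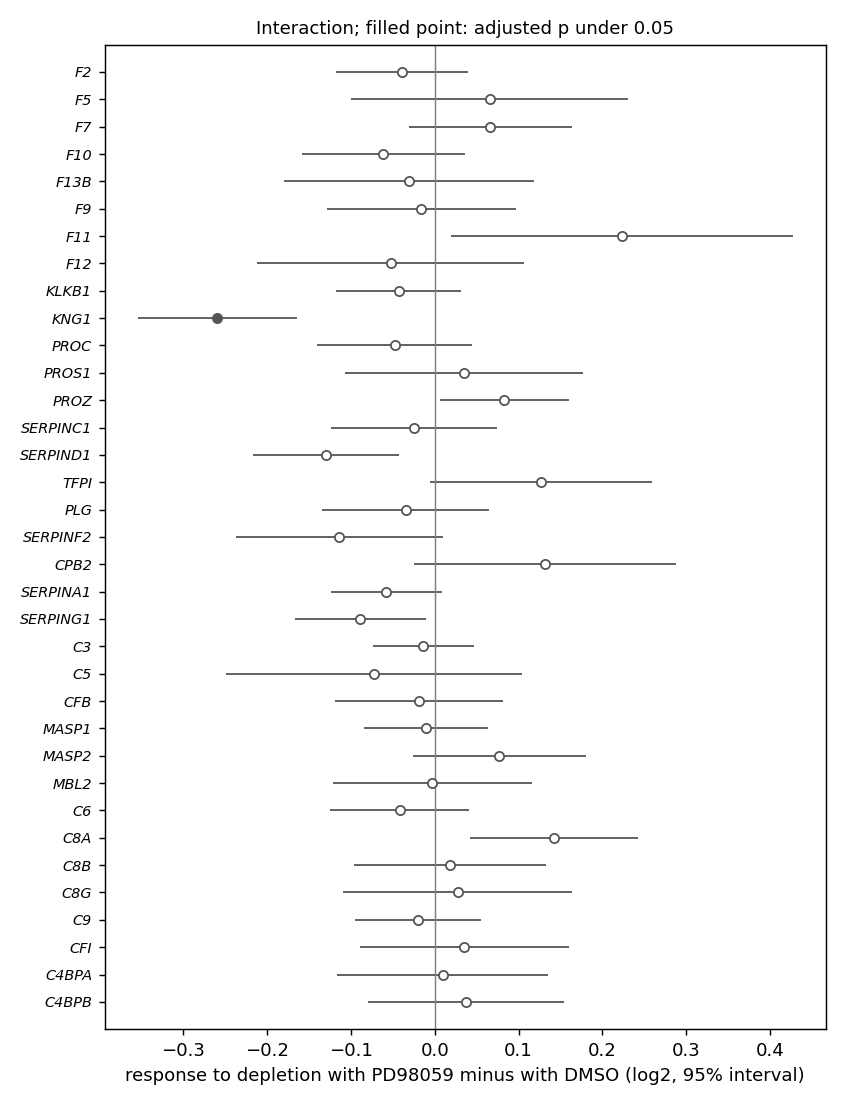
Difference between the responses to histidine depletion under PD98059 and under DMSO for each of the 35 genes (points, log2 units) with 95% intervals (bars). KNG1, at -0.26, is the filled point that passed an adjusted p of 0.05, and F11, at 0.22, has the highest value with a wide interval.

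That array also bore on the other counts. Without it the members called higher and lower were 18 and 1 for PD98059 in complete medium and 19 and 3 without histidine. For depletion they were 9 and 11 with DMSO and 8 and 9 with PD98059. Over all 22464 genes those counts were, in the same order, 2301 and 1984, 3756 and 3560, 4419 and 4644, and 3050 and 3780. With all arrays the counts of genes were 1705 and 1513, 3034 and 2458, 3333 and 4142, and 2701 and 3447. With each array shifted to the same median, 10 members instead of 15 rose with PD98059 in complete medium, the calls of F5, PROC, SERPIND1, C5 and CFB being lost. Over all genes 1244 instead of 1705 rose there. The calls of F7, F10, KNG1, SERPINC1, TFPI, SERPINF2, CPB2, MBL2, CFI and C4BPB for PD98059 in complete medium held in every alternative tried, listed with the processing, and with 4 arrays a group the smaller values are imprecise.

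Pathway genes outside the 35 were counted from a separate list, of which 47 were measured. With PD98059 in complete medium 9 of them rose (19.1%) and 5 fell (10.6%), beside 7.59% and 6.74% of all genes, and without histidine 10 rose (21.3%) and 8 fell (17%), beside 13.5% and 10.9%. With depletion under DMSO 7 rose (14.9%) and 14 fell (29.8%), beside 14.8% and 18.4%, and under PD98059 4 rose (8.51%) and 14 fell, beside 12% and 15.3%. Fibrinogen chains, the substrate of thrombin, rose with the drug. FGG, the gamma chain, rose by 0.41 ± 0.0477 in complete medium and by 0.57 without histidine (adjusted p = 1.4e-05 and 1.52e-07), and FGB, the beta chain, rose by 0.41 in complete medium (adjusted p = 7.16e-07). SERPINA10, the protein Z-dependent inhibitor of factor X, rose with PD98059 without histidine by 0.52 (adjusted p = 6.74e-06), and SERPINE2, protease nexin, fell by 0.57 there (adjusted p = 6.19e-11).

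Cell-surface complement genes outside the members changed with depletion in both directions. CD55, decay-accelerating factor, which shields cells from complement, rose with depletion by 0.97 ± 0.0356 with DMSO and by 0.61 with PD98059 (adjusted p = 4.36e-12 and 1.99e-09) and fell with PD98059 without histidine by 0.43 (adjusted p = 1.39e-07). C5AR1, the receptor of C5a, was dim. It rose with depletion under DMSO by 0.68 (adjusted p = 7.15e-07) and fell with PD98059 without histidine by 0.46 (adjusted p = 7.76e-05). C4B rose by 0.65 ± 0.18 with depletion under DMSO (adjusted p = 0.00941). Its arrays were widely spread, with an SD of 0.25 in DMSO-DMEM and 0.23 in DMSO-His, so the value is uncertain. The genome holds a near-identical copy of the gene, and the part of that copy in the value was not tested. CD46, another surface regulator, singled out after its values were seen, went the other way from CD55 with depletion: it fell by 0.37 with DMSO and by 0.31 with PD98059 (adjusted p = 3.32e-06 and 2.38e-05).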

How the data were processed

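Expression was measured on 1-colour Affymetrix arrays from 100 ng of total RNA per incubation, per the labels' protocols. The deposited values are log2 expression values that the authors made before deposit, with RMA, Partek 6.6 and genome build hg19 named per the submitters' processing notes. RMA settings are not given in the sources used here. RMA compresses low signals, and scanner files were not used. The table held 70459 rows and 16 columns with 0 missing values. The platform annotation gave 1 symbol for 23780 rows, several for 1543 and none for 45136, and 21496 rows matched the RefSeq gene table by Entrez identifier. For a symbol with several rows, that of the highest mean was used.

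Samples were grouped by title. A linear model of the 4 groups over all 16 arrays was run in R 4.3.3 with limma 3.58.1 and moderated by eBayes, with Benjamini-Hochberg adjustment over 22464 genes. Adjusted p-values are from that fit unless an alternative is named beside them. Values after ± are standard errors of the linear model. The fit was also run on simulated data with independent noise on every array, so that run did not cover the deviant PD-His array or correlated deviations. P-values measure the spread between incubations of 1 cell line. Members and lists were chosen with earlier results of these data known. Values on every array were given for members called with an absolute log2 fold change of at least 0.3 and not dim, dim meaning a mean under the median of all values in every group. Pathway genes outside the members were named when called at 0.4 or more, at most 6 per contrast. Shares of the sum of squares came from the balanced design of medium, drug and interaction. Promoters are from RefSeq, GRCh38.p14, not the hg19 of the arrays. Alternatives were array weights, leaving out each array, the replicate number as a block, fits of the contrast's groups alone, a robust variance with intensity trend, no dim genes, quantile normalization again, equal array medians, averaging the rows of a symbol, testing all rows, and an adjusted p under 0.01.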

Additional observations from a re-analysis of the deposited data

Results flagged for a closer look

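In 6 of the 140 groups of 4 arrays tested over the members, 1 array lay far from the other arrays of its group by Dixon's criterion, where chance flags about 1 group in 20. F13B read 4.53 on PD-DMEM replicate 3, below 4.67 to 4.69 on the others. PROS1 read 8.98 on DMSO-His replicate 4, below 9.06 to 9.07, and SERPINC1 read 10.31 on that array, above 10.22 to 10.24. PLG read 4.94 on DMSO-His replicate 1, above 4.89. TFPI read 9.20 and C4BPB 8.59 on PD-His replicate 3, below 9.39 to 9.43 and 8.71 to 8.73.

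Responses to depletion differed between PD98059 and DMSO, by limma's interaction term, for 1 of the 35 members and 6 of the 47 other genes measured. The member had a negative term (2.86% of members), and of the other genes 1 term was positive (2.13%) and 5 were negative (10.6%). Among the 22464 genes tested, positive terms passed in 2.91% and negative terms in 2.83%. For the brighter genes these rates were 3.97% and 3.88%. The share of members thus lay near the general rate. KNG1 differed by -0.26 (adjusted p = 0.00217). CD55 differed by -0.35 (adjusted p = 0.000422), C5AR1 by -0.48 (adjusted p = 0.0072) and SERPINA10 by 0.33 (adjusted p = 0.0342). SERPINE2 differed by -0.36 (adjusted p = 5.51e-06). F3, tissue factor, differed by -0.15 (adjusted p = 0.0457) and PLAU, urokinase, by -0.21 (adjusted p = 0.00106), and both genes were singled out here after their values were seen.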

How the results depend on the processing

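Over the alternatives, 249 of the counts of called members stayed within 1.5 times the value reported and 9 moved further. No call of a member named with its array values was lost or reversed, and 31 uncalled values of these members became calls. The members called lower with depletion under DMSO were 7, and 12 when only the groups of the contrast were fitted or with array weights. Leaving out 1 array gave 6 to 11. Those called higher there were 8, and 5 at an adjusted p under 0.01. For the interaction, 0 were called higher, and 4 with array weights or without PD-His replicate 3 (0 to 4 over all arrays left out), while 1 was called lower, 2 with an intensity trend and robust variance and 3 with array weights. Members called lower by PD98059 without histidine were 1, and 1 to 3 with 1 array left out. The cause was not tested.

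For all genes, array weights changed several counts by over 1.5 times: depletion with DMSO, higher, from 3333 to 5570, PD98059 in complete medium from 1705 higher and 1513 lower to 3151 and 2769, and the interaction from 654 higher and 635 lower to 2363 and 2252. An adjusted p under 0.01 left 1054 and 964 for PD98059 in complete medium and 252 and 340 for the interaction. The interaction had 321 called higher with medians shifted, 266 and 352 with every row tested, 1747 and 1398 without PD-His replicate 3, and 401 to 414 higher without DMSO-DMEM replicate 1 or 3, DMSO-His replicate 3, or PD-DMEM replicate 3 or 4.

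The replicate numbers were not taken to pair the arrays, because the labels state independent incubations and give no pairing. Deviations of same-numbered arrays correlated at over 0.1 in 9 of 24 pairs, which does not settle whether the numbers mark shared handling. The correlations ran from -0.32 to 0.51, those of replicate 3 among DMSO-His, PD-DMEM and PD-His from 0.37 to 0.51, and in 18 of 48 comparisons an array correlated best with its own number. With the replicate number as a block, members called higher and lower were 9 and 10 for depletion with DMSO, 7 and 10 for depletion with PD98059, 16 and 1 for PD98059 in complete medium, 18 and 1 for PD98059 without histidine, and 0 and 1 for the interaction. Over all genes they were, in that order, 3756 and 4292, 2847 and 3609, 1860 and 1644, 3194 and 2607, and 771 and 721. F13B, called in no contrast of the fit reported, was called in 3 with the block (adjusted p = 0.0126 to 0.0387).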

Other observations

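Tissue factor and the carboxylation enzymes that serve the vitamin K-dependent factors were not among the members, and these genes were singled out after their values were seen. F3, tissue factor, the cell-surface starter of clotting, rose with depletion by 0.33 ± 0.0299 with DMSO and by 0.18 with PD98059 (limma adjusted p = 1.84e-07 and 0.000183). It fell with PD98059 by 0.17 in complete medium and by 0.32 without histidine (adjusted p = 0.001 and 6.36e-07). Its drug values thus had the opposite sign to those of F7, given in the report. VKORC1, which recycles vitamin K, had log2 fold changes of -0.33 and -0.23 with depletion and 0.01 and 0.12 with PD98059, and GGCX, which carboxylates the factors, had 0.07, 0.06, 0.05 and 0.04 and was called in none of the 5 contrasts. FGA, the alpha chain of fibrinogen, rose with PD98059 by 0.37 in complete medium and by 0.40 without histidine (adjusted p = 3.54e-07 and 4.88e-08) and fell with depletion by 0.26 and 0.23 (adjusted p = 3.51e-06 and 2.06e-05).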
